A study of Zea mays with 18 samples.

Results

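Control maize anthers at the stage labelled S7 were compared with control anthers at the stage labelled S3-4, which gives the net change over the developmental window that was sampled. The members are the 6 libraries with both labels, 3 at S7 and 3 at S3-4, of 18 libraries in all, and they were chosen by stage and genotype alone. The controls, ZmCCT(-), are non-transgenic plants. The other plants of the series, ZmCCT(+), are ZmCCT10 transgenic plants in which ZmCCT is active, and an intermediate stage, S5-6, was also sampled in both genotypes. The sources used here do not give the inbred line, the transgene's promoter, the age of the plants, the length of the anthers, the number of plants per library or whether the replicates are different plants. Each p-value therefore reflects just the scatter of these libraries, possibly only a technical one.

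Anthers of grasses first set aside the cells that will enter meiosis and surround them with wall layers, of which the innermost, the tapetum, feeds the meiocytes and later supplies the pollen coat. A pair of microRNA families are known as markers of this course in maize, rice and other grasses: miR2118 triggers phased small RNAs in anthers before meiosis, and miR2275 triggers another class of phased small RNAs around meiosis. miR168 targets ARGONAUTE1, the protein that carries most plant microRNAs, and miR156 targets SPL transcription factors, which promote phase change and flowering. The deposited tables list 45578 genes, of which 43789 have a Zm00001d identifier, 1635 an ENSRNA identifier for a non-coding RNA and 154 a microRNA precursor name. Neither the files nor the gene table used here pair the Zm00001d identifiers with gene names, so protein-coding genes are described by level, size of change, position and behaviour, and the label of the tissue was not checked against markers of anther, leaf or pollen cells. Positions are copied from the deposited tables, and the sources used here do not name their genome build.

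The 6 libraries were of similar depth, with 15649060, 20595983 and 17424695 counts at S7 and 17880541, 17648209 and 19234593 counts at S3-4. Across the 24694 genes tested, log2 CPM (the count divided by the library's TMM-scaled total in units of 1e6) correlated at Pearson's r from 0.948 to 0.95 between an S7 and an S3-4 library, from 0.991 to 0.992 within S7 and at 0.992 within S3-4. These are correlations across genes, which are not independent replicates. The S3-4 ZmCCT(+) libraries stood apart, with r from 0.756 to 0.843 with the other 15 libraries, against 0.921 to 0.994 among those 15. They enter the estimate of the spread but not the contrast between the control stages, and a fit without them is given where it changes a call.

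Control anthers gained transcripts of many genes that were scarce at S3-4 and lost transcripts of fewer, more abundant genes. At S7, 2262 genes were at least 2-fold higher, or 9.16% of the 24694 tested, and 1313 were at least 2-fold lower, or 5.32% (edgeR quasi-likelihood test, Benjamini-Hochberg adjusted p below 0.05 over all genes tested). These 3575 genes are 14.5% of all tested. Of them, 3468 had no overlap between the 3 S7 and the 3 S3-4 values, 2189 of those higher and 1279 of those lower at S7. These genes were chosen by the same difference between the stages. The share without overlap among all tested genes was not counted, so these numbers have no background to be read against. Without a fold minimum 8123 genes were higher and 7861 lower, which is 64.7% of the genes tested, so a call alone says little about a single gene here. The median log2 fold change of all tested genes was 0.02. With a test against a 2-fold change itself (edgeR glmTreat), 1193 genes were higher and 800 lower.

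**Figure D1:**
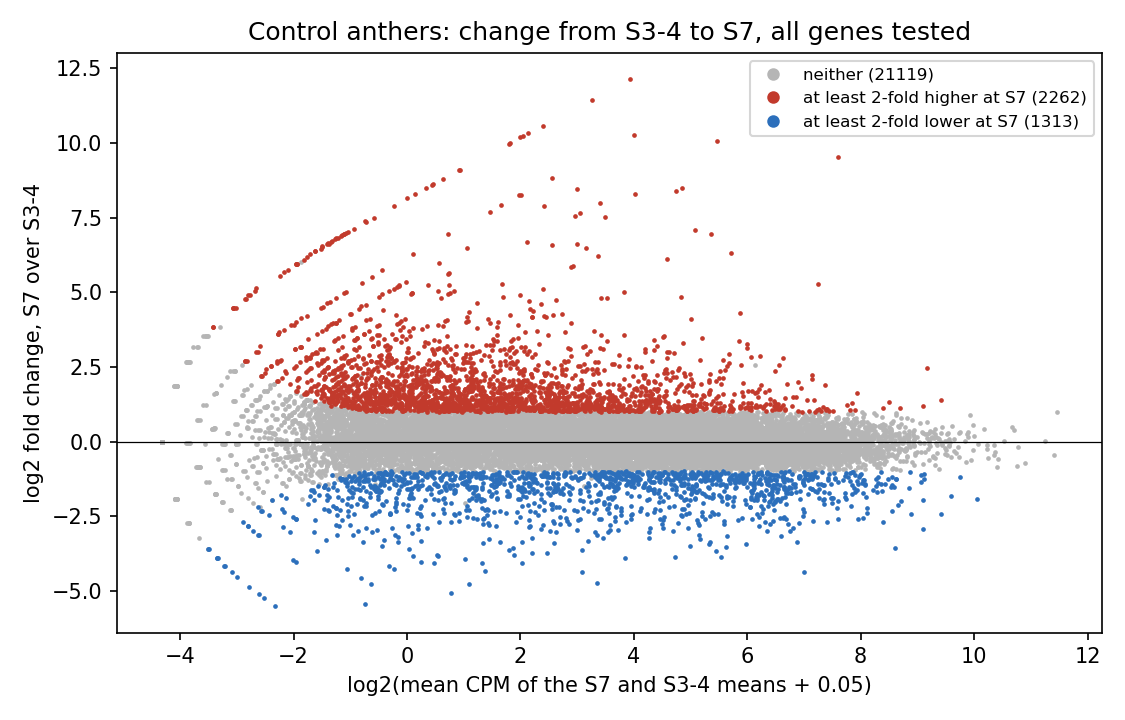
Log2 fold change of S7 over S3-4 in control anthers (vertical axis) against log2 of the mean CPM plus 0.05 (horizontal axis), 1 point per tested gene. The 2262 genes at least 2-fold higher at S7 reach much larger fold changes than the 1313 at least 2-fold lower. Curved rows of points at the left are genes with few or no counts at S7 or S3-4.

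The balance leaned further towards gains as the size of the change grew. Genes at least 4-fold higher at S7 numbered 767, against 343 at least 4-fold lower, and at 8-fold the numbers were 321 and 89. At 32-fold they were 104 and 5. Many of these steep gains started from almost nothing: 77 of the 104 had 3 counts or fewer over the 3 S3-4 libraries, and 4 of the 5 steep losses had 3 or fewer over the 3 S7 libraries. Fitted folds of such genes depend on how a count of 0 is treated. With a stage at or under 3 counts set to 3 counts over its 3 libraries (0.0539 CPM at S7 and 0.057 CPM at S3-4), the 32-fold numbers became 64 and 1, and the 2-fold numbers 2257 and 1308.

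**Figure D2:**
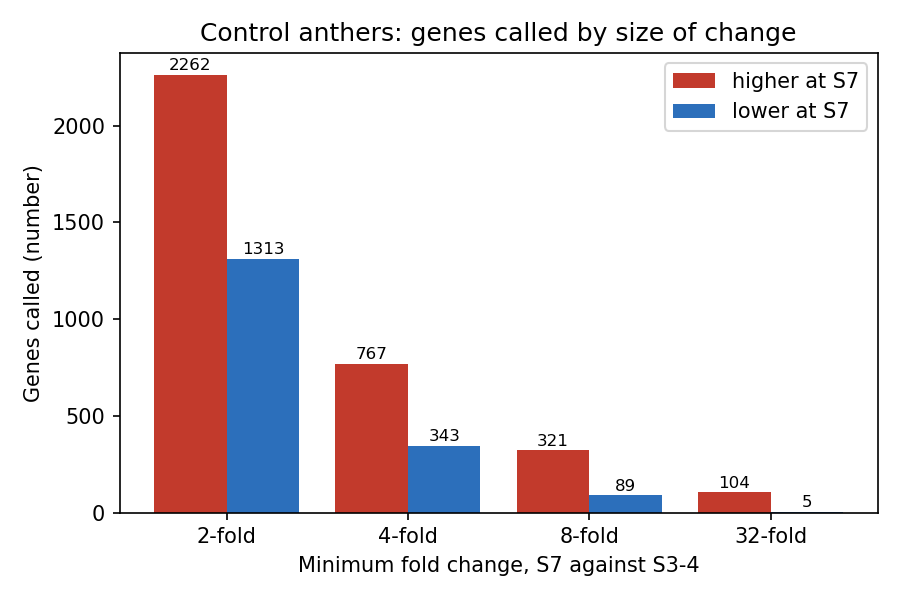
Number of genes called at S7 against S3-4 in control anthers (vertical axis) at 4 minimum fold changes (horizontal axis). The bar for genes higher at S7 exceeds the bar for genes lower at S7 at each minimum, from 2262 against 1313 at 2-fold to 104 against 5 at 32-fold.

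Measured as shares of the reads, the losses outweighed the gains. The 2262 genes that rose held 3.88%, 3.85% and 3.91% of the counts of the S7 libraries, against 1.22%, 1.23% and 1.22% of the S3-4 libraries. The 1313 genes that fell held 3.03%, 3.01% and 3.06% at S7, against 8.59%, 8.44% and 8.35% at S3-4. Neither set overlapped between the stages. These shares describe genes chosen by the same change and carry no test. In bulk anthers, fewer cells of a type and less RNA per cell cannot be told apart.

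**Figure D3:**
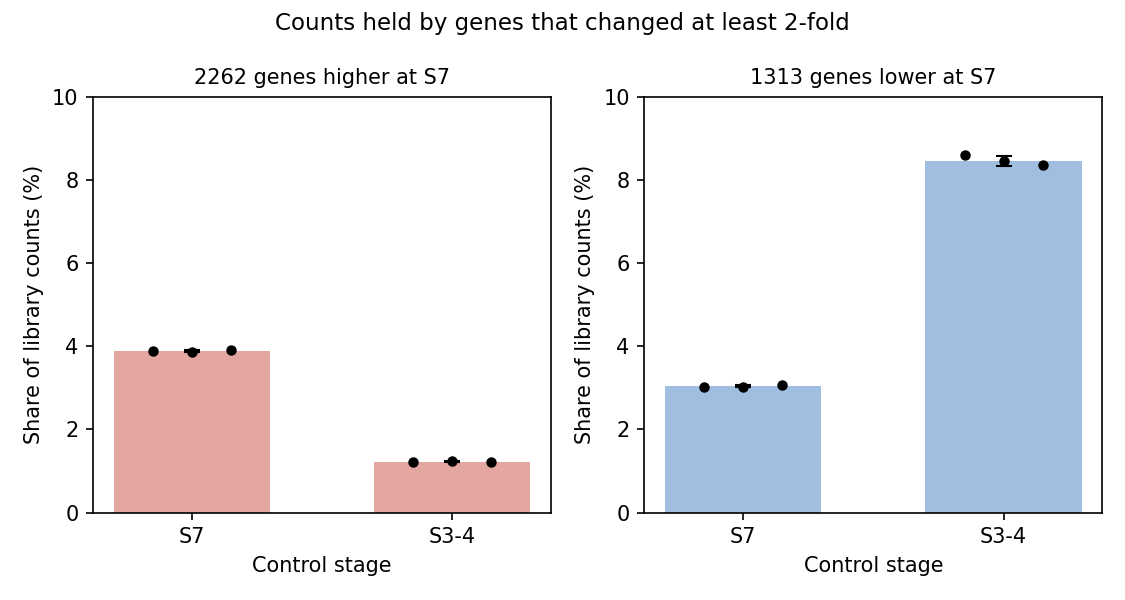
Share of each library's counts, in percent, held by the genes at least 2-fold higher at S7 (left panel) and at least 2-fold lower at S7 (right panel). Bars are means, error bars are SD and points are the 3 libraries of each control stage. The higher genes rise to between 3.85% and 3.91% at S7, while the lower genes drop to between 3.01% and 3.06% at S7 against 8.35% to 8.59% at S3-4.

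The level of a gene per unit of length, in TPM as the authors deposited it, divided the gains from the losses. Among tested genes averaging below 1 TPM over the 6 libraries, 521 of 2245 rose at least 2-fold (23.2%) and 171 fell (7.62%). Between 1 and 10 TPM, 1171 of 7323 rose (16%) and 440 fell (6.01%). Between 10 and 100 TPM the directions were close, with 501 of 13253 higher (3.78%) and 533 lower (4.02%). At 100 TPM or more the order turned, with 69 of 1873 higher (3.68%) and 169 lower (9.02%). The median level of the genes that rose was 4.81 TPM at S7 and 1.29 TPM at S3-4, and that of the genes that fell was 5.96 TPM at S7 and 18.6 TPM at S3-4, beside 15.8 and 15.5 TPM over all tested genes.

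The most abundant transcripts were partly exchanged. Of the 100 genes highest in TPM at S7 and the 100 highest at S3-4, 70 were shared, and of the 130 genes in either set 4 had risen and 21 had fallen at least 2-fold. The number of genes at 1 TPM or more was 23387, 23442 and 23408 in the S7 libraries, against 22689, 22620 and 22627 in the S3-4 libraries. That is 23412 ± 27.8 genes at S7 and 22645 ± 38 genes at S3-4 (SD, n = 3 each). The stages did not overlap, and the two-sided exact permutation p was 0.1, the smallest that 3 libraries against 3 can give.

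A small set of genes was silent at S3-4 and expressed, mostly weakly, at S7. Taking 3 counts or fewer over the 3 libraries of a stage as silent and 10 or more in every library as expressed, 77 genes were expressed at S7 and silent at S3-4, and 4 genes were silent at S7 and expressed at S3-4. The S7 level of the 77 ran from 0.608 to 31.8 CPM with a median of 1.61 CPM, and 28 of them had no S3-4 count at all. They lay on all 10 chromosomes, with at most 14 on a single one. With 1 count or fewer as silent the numbers were 43 and 1, and with 30 counts or more as expressed they were 31 and 0. The 4 genes that were lost had been weakly expressed, at 0.819 to 1.15 CPM at S3-4, and a count of 3 over the S7 libraries corresponds to 0.0539 CPM.

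Zm00001d018509 (chromosome 5, 222113076 to 222115201, plus strand) showed the largest rise by the naming rule. It had 32.1, 29.1 and 30.2 CPM in the S7 libraries and no count in the 3 S3-4 libraries. The S7 mean of 30.5 ± 1.56 CPM (SD, n = 3) was at least 534-fold higher than the floor of 3 counts over the S3-4 libraries (edgeR adjusted p = 3.63e-47). Zm00001d053618 (chromosome 4, 236692389 to 236693329, minus strand) had 18.6, 19.1 and 19.3 CPM at S7 and again no count at S3-4, at least 333-fold higher (edgeR adjusted p = 1.48e-43). Both genes were higher still at S5-6, at averages of 52.1 and 39.7 CPM, so their net gain at S7 is smaller than the gain at the middle stage. In ZmCCT(+) anthers, Zm00001d018509 had 5 counts and Zm00001d053618 none at S7, and neither had a count at S3-4.

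Among called genes averaging 1 CPM or more at S3-4 without overlap between the stages, the pair with the lowest fitted fold changes was weakly expressed. Zm00001d051695 (chromosome 4, 167034696 to 167036781, plus strand) had 1, 0 and 0 counts at S7, against 24, 20 and 12 counts at S3-4. The ratio of S3-4 to S7 was 59.3, and counting error alone gave it an exact 95% interval of 10.2 to 2380 (edgeR adjusted p = 6.35e-05). The same gene was abundant in S3-4 ZmCCT(+) anthers, at 593, 669 and 620 CPM, and at 20, 23.6 and 21.5 CPM in S7 ZmCCT(+) anthers, and its log2 change over the span did not differ detectably between the genotypes (difference -0.59 ± 1.03 SE, edgeR adjusted p = 0.623). Zm00001d033987 (chromosome 1, 280368696 to 280370932, minus strand) had 0.0617, 0.14 and 0.0552 CPM at S7 against 3.49, 2.59 and 3.62 CPM at S3-4. Its level was lower by 33.7-fold (log2 -5.07 ± 0.44 SE, edgeR adjusted p = 9.7e-18), with 5 counts at S7 and 171 at S3-4.

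Of the 154 microRNA precursors listed, 7 had enough counts to test, 19 had some counts in the 6 libraries and were not tested, and 128 had none. The libraries were made from mRNA and report the primary transcript of a microRNA, not the mature small RNA. Of the 7 tested, 4 passed at an adjusted p below 0.05, each at least 2-fold higher at S7, and none passed as lower. Among all tested genes 32.9% were called higher without a fold minimum.

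zma-MIR2275c (chromosome 10, 70573557 to 70573793, plus strand) made the largest change of the 7 tested. It had 23.3, 21.3 and 21.9 CPM at S7, against 0.116, 0.118 and 0.108 CPM at S3-4. Its S7 level was higher by 183-fold (log2 7.52 ± 0.23 SE, edgeR adjusted p = 6.28e-46). The S3-4 value rests on 2 counts in each library, and the ratio of the summed counts, 1230 to 6, had a 95% exact interval of 88.7 to 529. The nearest listed gene lay 3946 bases away on the opposite strand and was lower at S7 (log2 -0.67).

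zma-MIR2275b (chromosome 4, 31734063 to 31734144, plus strand), of the same family, rose far less. It had 1.3, 1.36 and 1.44 CPM at S7 against 0.582, 0.472 and 0.703 CPM at S3-4, which is 2.3-fold higher (log2 1.2 ± 0.37 SE, edgeR adjusted p = 0.0032). The stages did not overlap. Its neighbour zma-MIR2275a lies 35 bases away on the same strand and had 4 counts at S7 and 2 at S3-4, too few to test. Reads of a transcript that spans the pair cannot be told apart.

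zma-MIR168a (chromosome 5, 76534928 to 76535031, minus strand) rose without overlap between the stages. It had 3.39, 4.3 and 3.7 CPM at S7 against 0.932, 1.18 and 1.24 CPM at S3-4, a rise of 3.4-fold (log2 1.77 ± 0.22 SE, edgeR adjusted p = 7.3e-11).

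The miR156 precursors were near the limit of detection. zma-MIR156d had 6, 4 and 10 counts at S7 against 1, 2 and 3 counts at S3-4 and was called 3.05-fold higher (log2 1.61 ± 0.69 SE, edgeR adjusted p = 0.037). That call was lost without S3-4 replicate 1 or 2 or S7 replicate 1 or 3, with adjusted p of 0.131, 0.0721, 0.0644 and 0.205, and turned to log2 -0.07 and -0.08 on TPM. The call was also lost with the DESeq2 test (adjusted p = 0.059), and in edgeR without a low-count filter (0.0615) or with an assumed spread of 20% (0.0501). Without the S3-4 ZmCCT(+) libraries the precursor had too few counts to be tested. It overlaps a listed ENSRNA gene with no counts. zma-MIR156j had 9, 25 and 5 counts at S7 against 5, 8 and 4 at S3-4. The stages overlapped and the log2 difference of 1.08 ± 0.5 SE did not pass (edgeR adjusted p = 0.0533), and the adjusted p moved both ways when a library was left out. Without S7 replicate 2, the library with 25 counts, the log2 difference was 0.33 (adjusted p = 0.669), and without S3-4 replicate 1 or 3 or S7 replicate 1 the adjusted p was 0.124, 0.194 and 0.0535. It passed without S7 replicate 3 or S3-4 replicate 2 (0.0127 and 0.0372), with the 9 control libraries alone (0.0495) and without the S3-4 ZmCCT(+) libraries (0.0486). It also passed with limma-trend on log2(TPM + 1) and log2(TPM + 0.1) (adjusted p = 0.00111 and 0.0354).

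The miR2118 precursors did not pass in the main fit. zma-MIR2118e had 1.73, 0.936 and 0.883 CPM at S7 against 1.46, 2.01 and 2 CPM at S3-4, and its log2 difference of -0.65 ± 0.3 SE lay just past the threshold (edgeR adjusted p = 0.0501). In 7 of 17 alternatives it passed as lower. These were without S7 replicate 1 (log2 -1, edgeR adjusted p = 0.00882), whose value was the highest of the S7 libraries, and without S3-4 replicate 1 (0.0305). The 6 libraries compared alone (0.0402), the 9 control libraries alone (0.0425) and the fit without the S3-4 ZmCCT(+) libraries (0.0435) also passed it. So did DESeq2 size factors in edgeR (0.0454) and limma-voom (0.033). It moved further from the threshold without S7 replicate 2 or 3 (log2 -0.5 and -0.49, adjusted p = 0.197 and 0.188) and without S3-4 replicate 2 or 3 (0.128 and 0.137). zma-MIR2118c had 0.37, 0.515 and 0.663 CPM at S7 against 0.757, 0.295 and 0.324 CPM at S3-4, with a log2 difference of 0.18 ± 0.48 SE (edgeR adjusted p = 0.756).

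**Figure D4:**
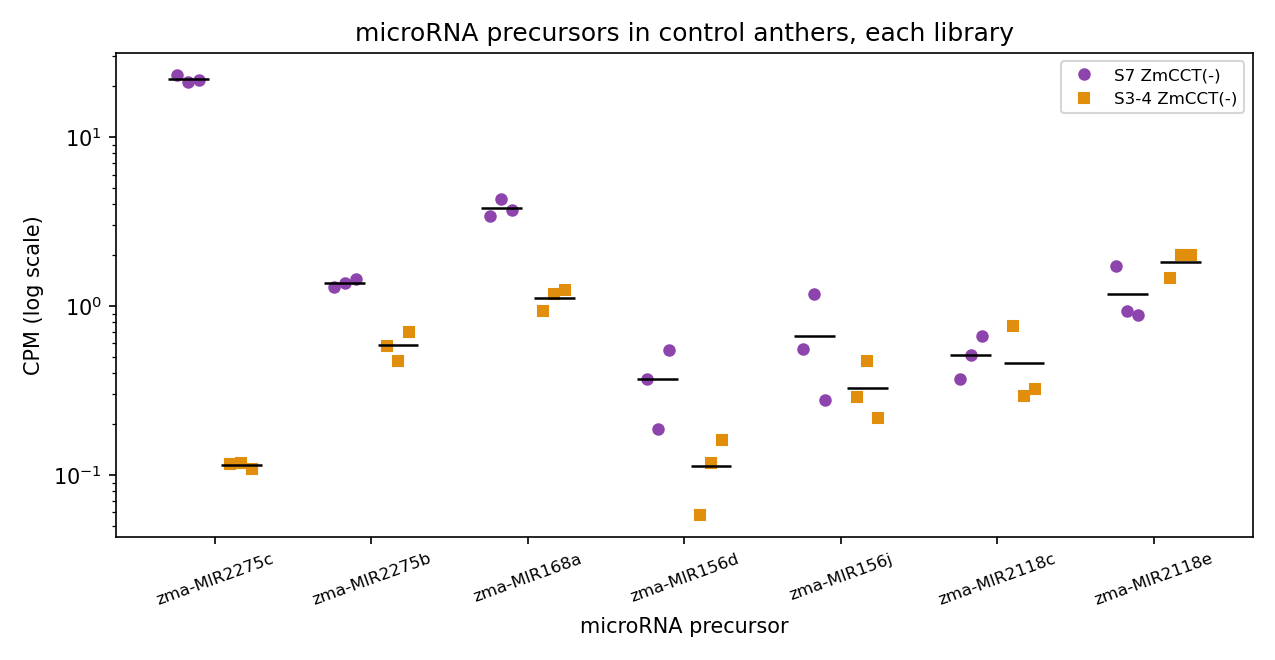
CPM on a log scale (vertical axis) of the 7 microRNA precursors tested, in each control library, S7 as circles and S3-4 as squares, with horizontal bars at the means. zma-MIR2275c stands apart, at 21.3 to 23.3 CPM at S7 and 0.108 to 0.118 CPM at S3-4, and the stages overlap for zma-MIR156j, zma-MIR2118c and zma-MIR2118e.

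Other non-coding RNA genes were called more often than genes overall and mostly in the direction of a rise. Of 1635 genes with an ENSRNA identifier 99 were tested, 29 of them at least 2-fold higher at S7 (29.3%, beside 9.16% of all tested genes), 9 at least 2-fold lower (9.09%, beside 5.32%) and 61 neither. Their median log2 change was 0.38. These are weak signals, with a median of 55 counts over the S7 libraries and 34 over the S3-4 libraries. For Zm00001d genes the medians were 962 and 881. Of all tested genes averaging below 1 TPM, 23.2% rose and 7.62% fell. Shares were not compared at a like level, so they are not a result about non-coding RNA as such. The 29 lay on 9 chromosomes, 8 on chromosome 5 and 6 on chromosome 6, and 5 of the 9 lower ones were on chromosome 6. The 99 tested genes were not counted by chromosome, so these numbers have no background to be read against. Several of the 29 were packed together. Within 92505181 to 92506110 of chromosome 6, 4 of 5 listed genes rose by log2 1.24 to 2.63, with summed levels of 2.9, 2.11 and 2.87 CPM at S7 against 0.699, 0.708 and 0.703 CPM at S3-4. A run of 3 more within 49521841 to 49523247 of chromosome 5 summed to 5.3, 6.74 and 7.18 CPM at S7 against 1.98, 3.01 and 2 CPM at S3-4.

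The genes that changed were short. The distance from gene start to gene end in the deposited tables had a median of 1884 bp for the genes that rose and 1887 bp for those that fell, beside 3501 bp for all tested genes. Among genes averaging 10 TPM or more the medians were 1844 bp for 570 that rose, 1846 bp for 702 that fell and 4130 bp for all 15126. These distances include introns, and no test was made.

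Changes were spread over the genome. The share of tested genes that rose ran from 8.61% on chromosome 4 to 9.82% on chromosome 6, and the share that fell from 4.79% on chromosome 8 to 6.09% on chromosome 5. Neighbours moved together somewhat more often than the overall share. Of 2260 genes that rose and had a next tested gene on the chromosome, 276 (12.2%) were followed by a gene that also rose, beside 9.16% of all tested genes, and of 1313 that fell, 133 (10.1%) were followed by a gene that also fell, beside 5.32%. Runs of at least 3 consecutive tested genes numbered 36 among the genes that rose, with 121 genes, and 11 among those that fell, with 37 genes.

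The longest run that rose held 6 genes between 3614699 and 3844823 of chromosome 4, where 9 genes are listed. Their summed level was 462, 441 and 464 CPM at S7 against 172, 177 and 161 CPM at S3-4, with single log2 changes from 1.03 to 2.28. A run of 5 between 103387819 and 104844174 of chromosome 6 summed to 53.7, 48.1 and 53.9 CPM at S7 against 6.93, 6.6 and 6.33 CPM at S3-4. A run of 4 lay between 23656326 and 23853160 of chromosome 7, with 316, 309 and 311 CPM at S7 against 66.4, 67.5 and 72.6 CPM at S3-4.

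The longest run that fell held 5 genes between 146027044 and 146494703 of chromosome 7, with 174, 170 and 171 CPM at S7 against 462, 444 and 421 CPM at S3-4. A run of 4 between 59145174 and 59314891 of chromosome 2 fell to 14.2, 12.9 and 12.5 CPM at S7, against 127, 121 and 122 CPM at S3-4. Stages did not overlap in any of these summed levels. The sources used here do not say how reads shared by near-identical neighbouring copies were counted, so values of single genes in a run are uncertain. The runs were singled out after their values were seen, and they carry no test beyond that of each gene.

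The middle stage shows how the net change was reached. It shares its end stages with the span, so these are descriptions. At the median, the genes that rose had made 73% of their log2 change by S5-6 and the genes that fell 89.6% of theirs. Of the 2262 that rose, 1783 had an S5-6 mean between the S3-4 and S7 means, 442 were higher at S5-6 than at S7 and 36 were lower at S5-6 than at S3-4. Of the 1313 that fell, 882 lay between, 395 were lower at S5-6 than at S7 and 32 were higher at S5-6 than at S3-4. Of the 77 genes expressed at S7 and silent at S3-4, 59 were expressed in every S5-6 library and 42 had a higher mean at S5-6 than at S7. Few of the 21119 genes not called at 2-fold over the span lay beyond both end stages at S5-6. There, 13 were at least 2-fold higher than at both S3-4 and S7 and 39 were at least 2-fold lower than at both, counting genes at 1 CPM or more at the higher level. Genes that changed 2-fold in a single step were not counted.

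The same span in ZmCCT(+) anthers shares no library with the control span. Genes that fell in controls mostly fell there as well, while genes that rose in controls did so less uniformly. Of the 1313 genes at least 2-fold lower at S7 in controls, 937 were also at least 2-fold lower at S7 in ZmCCT(+) (71.4%, beside 20.3% of all tested genes) and 74 were at least 2-fold higher (5.64%, beside 21.0%). Of the 2262 genes at least 2-fold higher in controls, 924 were also higher in ZmCCT(+) (40.8%, beside 21.0%) and 392 were lower (17.3%, beside 20.3%). Median log2 changes were 1.6 in controls and 0.66 in ZmCCT(+) for the genes that rose, and -1.51 and -1.95 for those that fell; with stages at or under 3 counts set to that floor they were 1.61 and 0.63, then -1.51 and -1.94. The genes were chosen on the control values, and the ZmCCT(+) span rests on the S3-4 ZmCCT(+) libraries that stand apart.

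The test of the difference between the control change and the ZmCCT(+) change called 18283 of 24694 genes (74.0%, edgeR adjusted p below 0.05), of which 52.5% had the higher change in controls. On log2(TPM + 1) with limma-trend that share was 41.6% and on log2(TPM + 0.1) it was 40.9%, where the median of all genes moved to -0.15 and -0.18. Among differences of at least 2-fold the share was 52.5% with edgeR, against 42.2% and 41.6% on TPM. Those alternatives change the test together with the scale, and the balance of directions turned with them. Among the control members, 1582 of the genes that rose (69.9%) and 946 of those that fell (72%) were called in this test, which uses the same control libraries that chose them. Of the 77 genes switched on in controls, 13 were expressed in every S7 ZmCCT(+) library and 22 were silent there. At S3-4, 40 of the 77 were silent in ZmCCT(+) anthers. The 77 were chosen on the control values, and the same shares over all genes were not counted.

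Of the precursors with counts in all groups, zma-MIR168a had the change over the span that differed most clearly between the genotypes. Its log2 change over the span was 1.77 in controls and -0.37 ± 0.16 SE in ZmCCT(+), a difference of 2.13 ± 0.28 SE (edgeR adjusted p = 1.02e-10), and the ZmCCT(+) levels were 4.07, 5.54 and 6.03 CPM at S7 against 6.88, 6.4 and 7.05 CPM at S3-4. For zma-MIR168a the genotypes differed mainly at S3-4, averaging 1.12 CPM in controls and 6.78 CPM in the ZmCCT(+) libraries that stand apart. At S7 its averages were 3.8 and 5.21 CPM. At S7, zma-MIR2275c had 0.445, 0.544 and 0.384 CPM in ZmCCT(+) anthers, beside an average of 22.2 CPM in controls. At S5-6 it had 3.49, 3.16 and 3.08 CPM in ZmCCT(+) anthers, beside an average of 20.2 CPM in controls. It had no count in S3-4 ZmCCT(+) anthers. Because that group has no count, the fitted difference for zma-MIR2275c and for zma-MIR2275b, also without a count in S3-4 ZmCCT(+), is not used here.

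**Figure D5:**
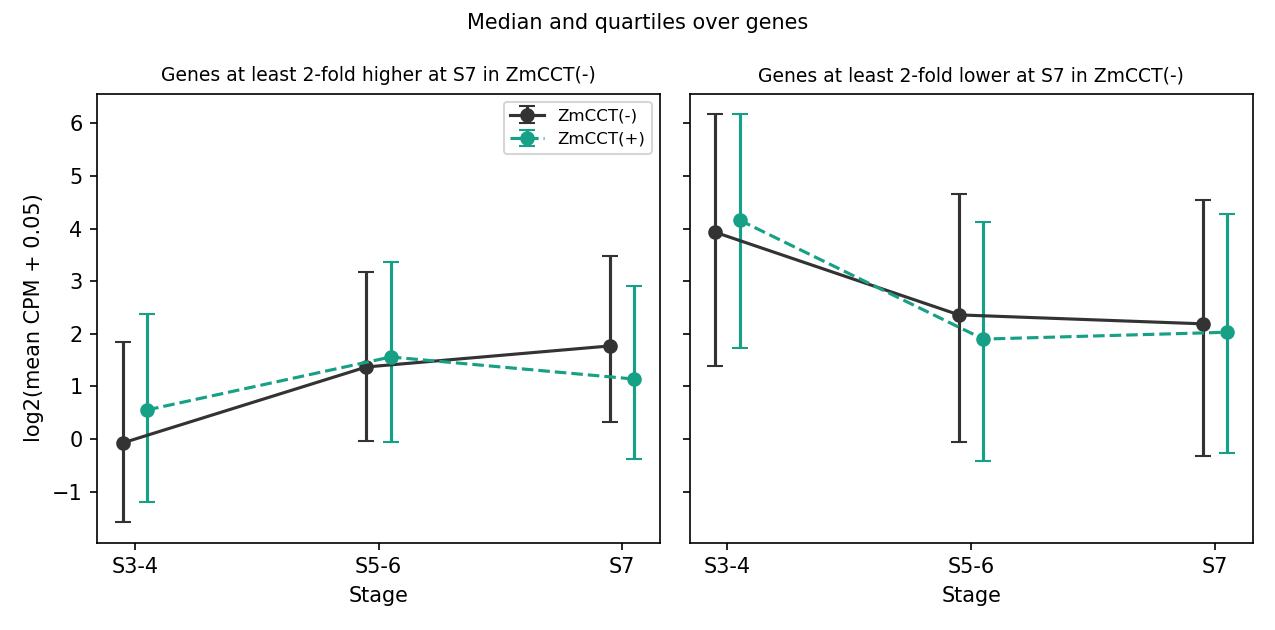
Median and quartiles over genes of log2(mean CPM + 0.05) at S3-4, S5-6 and S7 in ZmCCT(-) (solid) and ZmCCT(+) (dashed), for genes at least 2-fold higher (left) and lower (right) at S7 in controls. In controls the rising genes climb to a median of 1.77 at S7, above 1.14 in ZmCCT(+), and the falling genes reach 2.19 in controls and 2.03 in ZmCCT(+).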

How the data were processed

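RNA-seq counts of control anthers at S7 and S3-4 were compared. The authors deposited raw counts per gene in 1 table per stage, and, per library, tables with TPM and coverage, a signal of read depth, both per library as the authors scaled them, per the file headers. Bowtie2, StringTie and DESeq2 appear in the submitters' processing notes. Versions, settings, genome build and strand counting: not given in the sources used here. Each count column was compared with the coverage tables, and 18 of 18 matched their own sample best.

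The low-count filter was edgeR's filterByExpr (edgeR 4.0.16 in R 4.3.3, minimum count 10, minimum total 15). It kept 24694 genes and left out 20884. TMM scaling and the robust quasi-likelihood F test were run on 1 fit of 18 libraries in 6 groups with 12 residual degrees of freedom. Adjustment was by Benjamini-Hochberg over all genes tested, with a threshold of 0.05. SE was obtained by dividing the size of the log2 fold change by root F. The spread of replicates beyond counting noise was estimated at 3.2% (coefficient of variation, from the dispersion common to all genes and libraries). Single genes, above all weak ones, varied more. Each pair of S7 or S3-4 control libraries differed by more than counting noise (chi-square over degrees of freedom 1.68 to 2.01). Floors and intervals (exact Clopper-Pearson, 95%) cover counting error only. The test was tried on simulated data with known changes. They were drawn from the mean levels and spreads of these libraries, so the trial cannot show how often calls here are wrong.

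Named genes are the 2 highest and 2 lowest fold changes among called genes without overlap at 1 CPM or more, and all tested precursors. The comparison, lists and rules were chosen with earlier results of these data known. Of the prepared gene lists none had a member paired with an identifier (0 of 43789 Zm00001d identifiers are in the gene table of assembly Zm-B73-REFERENCE-NAM-5.0), so no list was described. Alternatives were other scaling (DESeq2 1.42.0 size factors), tests (DESeq2, limma-voom and limma-trend of limma 3.58.1 on log2 TPM with pseudocounts 1 and 0.1), filters, sets of libraries, a replicate block, an assumed spread of 20%, glmTreat and leaving out each library.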

Additional observations from a re-analysis of the deposited data

Results flagged for a closer look

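The change from S3-4 to S7 differed between control and ZmCCT(+) anthers, by edgeR's test of the difference, for 18283 genes, with 10754 left under an assumed spread of 20%. The S3-4 ZmCCT(+) libraries stand apart from all others, and their part in this number was not tested, because the comparison cannot be made without them.

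The precursors zma-MIR168a and zma-MIR156d, both with counts in all groups, were among them. zma-MIR168a had a log2 difference of 2.13, control minus ZmCCT(+), and stayed past the threshold in 15 of 15 alternatives (edgeR, limma and DESeq2 adjusted p from 2.14e-13 to 1.43e-06). All 15 keep the S3-4 ZmCCT(+) libraries, where zma-MIR168a averaged 6.78 CPM against 1.12 CPM in S3-4 controls. These 15 therefore give no independent support. zma-MIR156d had a log2 difference of 3.2 (edgeR adjusted p = 0.000623), with 20 counts at S7 and 6 at S3-4 in controls, and 14 and 37 in ZmCCT(+). It stayed past the threshold in 14 of 14 alternatives that could test it. All of these keep the S3-4 ZmCCT(+) libraries, where it is highest and through which it passed the low-count filter. They are therefore no independent support. The size of its difference depended on the alternative, at 1.32 on log2(TPM + 1) and 1.41 on log2(TPM + 0.1).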

How the results depend on the processing

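Leaving out each of the 6 libraries in turn gave 2234 to 2292 genes at least 2-fold higher at S7 and 1318 to 1360 lower, 7651 to 7708 and 7521 to 7575 without a fold minimum, 17923 to 18019 for the difference between genotypes, and 4 precursors called each time, though not the same ones. zma-MIR156d was lost in 4 of these 6 fits, where zma-MIR2118e was called as lower (without S3-4 replicate 1 or S7 replicate 1) or zma-MIR156j as higher (without S3-4 replicate 2 or S7 replicate 3). Fitting without the S3-4 ZmCCT(+) libraries, or only genes at 1 CPM or more at the higher stage (1801 higher and 1150 lower), both added after seeing the data, stayed within 1.5 times of the counts reported. Counts at 2-fold moved further with limma-trend on log2(TPM + 1), to 1317 higher and 874 lower, with glmTreat, to 1193 and 800, and, for higher genes, with the stricter filter, to 1501. That filter needs 50 counts in 3 libraries and left 2 precursors called. An assumed spread of 20% left 3631 higher and 2453 lower without a fold minimum and 10754 for the difference between genotypes. Genes switched on or off numbered 43 and 1 or 31 and 0 under other count limits. zma-MIR156d turned to log2 -0.07 and -0.08 on TPM, and zma-MIR2118c, not called, to -0.29 and -0.42 on TPM, and to -0.04, -0.02 and -0.02 without S3-4 replicate 2, S3-4 replicate 3 or S7 replicate 3 (range over libraries left out -0.04 to 0.73). The cause was not tested.

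The replicate numbers share no stated origin. Deviations of same-numbered S7 and S3-4 libraries correlated at 0.0172 to 0.0203, below 0.1, although each library correlated best with its own number (others -0.0235 to 0.0035). With the replicate block, 2255 genes were at least 2-fold higher and 1317 lower, and 18242 were called for the difference between genotypes; no named gene changed its call.

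Low counts limit the precursors other than zma-MIR2275c and zma-MIR168a, and silence means 3 counts or fewer at this depth.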
